A study of Danio rerio with 16 samples.

Results

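The unexposed embryos of a zebrafish (Danio rerio) series were compared between 48 and 120 hours post fertilization (hpf), 4 control libraries at each stage out of 16 in the series. RNA of whole embryos was sequenced in all of them. The other 8 libraries came from embryos under radiofrequency radiation, here RFR, of 3.5 GHz and roughly 30 dBm between 6 and 48 hpf, and they enter only the comparison of the stage effect at the end. The controls received no radiation, and nothing else is stated to differ between the groups. Strain, number of embryos per library and clutch of origin are not given in the sources used here. P-values therefore speak of library-to-library spread alone, which may be technical. Of 32513 rows in the deposited expression table, 21622 reached 0.5 FPKM (fragments mapped to a gene, scaled to transcript length and to library size) in at least 4 of the 8 libraries and were tested, 20270 of them with a gene symbol. The remaining 10891 rows were not tested.

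Between these stages a zebrafish embryo that has finished laying out its body hatches, and becomes a free-swimming larva that sees, moves and starts to digest food. Dividing precursor cells of the brain, retina and gut leave the cell cycle and take on their final type, the liver, pancreas and intestine begin to function, and the yolk is used up. The hatching gland, a transient organ that dissolves the egg shell, disappears, and the first red blood cells, which carry embryonic globins, are replaced over the following days by later ones.

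Depth after the authors' filter was 46690566 to 48933040 reads in the 48 hpf libraries and 46423760 to 49232542 in the 120 hpf libraries. The share of reads mapped was 70.19 to 71.8% at 48 hpf and 66.2 to 67.6% at 120 hpf, so it moved with stage in every library, and its part in any result was not tested. The rRNA share was 3.2% in 120 hpf replicate 1 and at most 0.27% in the other 7 libraries. The first principal component of log2 expression held 87.5% of the variance and separated the stages. Correlations of log2(FPKM + 0.5) across genes were 0.966 to 0.988 within a stage and 0.771 to 0.807 between stages. Markers of muscle, skin, blood, brain, eye, liver and pronephros were measured in both groups, which are labelled as whole embryos.

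Of the 21622 genes, 14549 (67.3%) differed between the stages at an adjusted p under 0.05 in limma, a linear model fitted across all genes on log2(FPKM + 0.5). Of all genes tested, 8284 (38.3%) were higher at 120 hpf and 6265 (29.0%) lower, and the median log2 change over all of them was 0.11. These shares are the background for every count of a gene group below. A change of at least 2-fold besides was found for 5940 genes (27.5%), 4103 higher and 1837 lower. The 4 values of one stage lay wholly above the 4 of the other for 13356 genes (61.8%), with 120 hpf above in 35.3% and 48 hpf above in 26.5%. The split into higher and lower depends on the scaling of the libraries. Deposited FPKM gave 56.9% of the calls as higher, median-ratio scaling 49.8% and quantile normalization 41.6%, and quantile normalization moved the median of all genes from 0.11 to -0.15. Large changes leaned to one side under the deposited scale: at least 16-fold, 332 genes were higher and 24 lower, and at least 64-fold, 91 and 14. Since the RNA of whole animals was measured, fewer cells of a type and less RNA per cell cannot be told apart in any of these values.

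**Figure D1:**
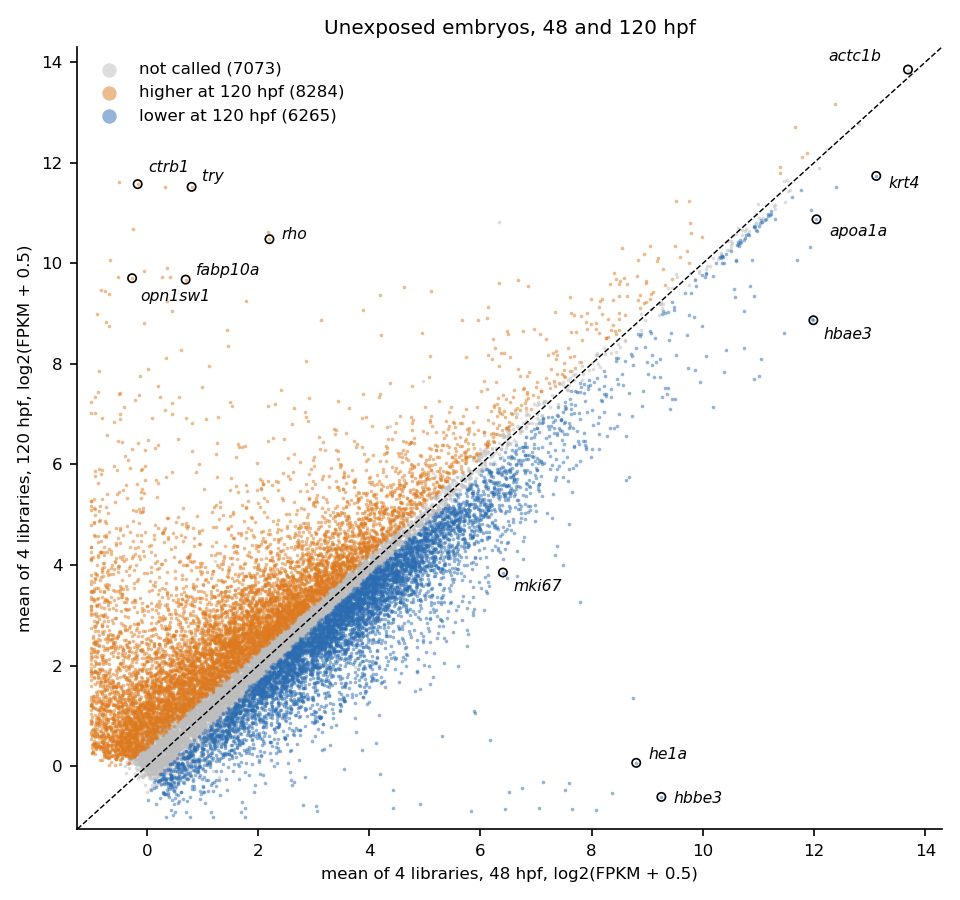
Mean level of each of the 21622 tested genes in the 4 unexposed 48 hpf libraries (x axis) and the 4 unexposed 120 hpf libraries (y axis), both as log2(FPKM + 0.5). Orange points are genes higher at 120 hpf, blue points genes lower and grey points genes not called at an adjusted p of 0.05; the labelled genes include try at 2935 FPKM and rho at 1427 FPKM at 120 hpf, and hbbe3 and he1a at 610 and 446 FPKM at 48 hpf.

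Of the 8 highest levels at each stage, 4 genes were the same. The first at both was actc1b (skeletal and cardiac alpha-actin), with 13200 ± 449 FPKM at 48 hpf and 14780 ± 1158 at 120 hpf (mean ± SD, n = 4, here and below), adjusted p = 0.14. The elongation factor eef1a1l1 (7208 ± 454 and 6957 ± 270 FPKM) and the tropomyosin tpma (4826 ± 258 and 4975 ± 271 FPKM) passed no threshold either. The skin keratins krt4 and cyt1, the apolipoprotein apoa1a and the actin actb2 completed the list at 48 hpf together with pvalb1. At 120 hpf the fast muscle genes pvalb1, pvalb2, mylpfa, mylz3 and tnnt3b filled it instead. The 50 highest rows held 26.2 to 28.2% of the summed FPKM at 48 hpf and 25.0 to 26.1% at 120 hpf.

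Of the 15 largest rises among symbol-bearing genes whose mean reached 50 FPKM in a stage, 11 belong to digestion by the pancreas: the trypsins try, prss59.1 and prss59.2, the chymotrypsins ctrb1 and ctrl, the predicted chymotrypsin-type genes zgc:136461 and zgc:112160, the elastases zgc:92041, ela2l and ela3l, and the amylase amy2a. The others were c6ast4, an astacin protease, chia.2, an acidic chitinase, opn1sw1, the ultraviolet cone opsin, and pde6h, a subunit of the cone phosphodiesterase. Of the 15 largest falls, 9 were cathepsin L-like protease genes, and he1a and he1b encode hatching enzymes. The remaining 4 were the embryonic beta-globin hbbe3, LOC568656 (a predicted protein named after a fish antifreeze protein), the acid phosphatase acp5a and the D-amino-acid oxidase dao.1. A switch from under 0.5 FPKM in all 4 libraries of 48 hpf to at least 5 FPKM in all 4 of 120 hpf was found for 237 genes with a symbol, and the opposite switch for 11. The highest of the former were fabp6, cel.1, zgc:92137, c6ast4 and digestive enzymes of the pancreas named above. Besides hbbe3 and the apolipoprotein B gene apobb.2, the latter were ctslb and other cathepsin L-like rows, among them LOC100536033, zgc:174855, si:dkey-269i1.3, si:dkey-26g8.5 and zgc:174153. The filter let 1296 genes in through the 120 hpf libraries alone and 119 through the 48 hpf libraries alone, and such genes had to differ. This holds also where such genes are counted in the lists below. The adjusted p of such a gene, among them mbpa, gh1, rhcga, rag1, hbbe3 and ctslb below, is likewise no independent support for its change.

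The exocrine pancreas showed the largest shift of any list. All 22 of its genes rose (22 of 22, median log2 change 8.66). Members under 0.5 FPKM in every 48 hpf library, such as cel.1, passed the filter through the 120 hpf libraries alone and had to rise. How many of the 22 these were was not counted. The trypsin gene try (prss1) read 1.7, 0.82, 0.76 and 1.71 FPKM in the 4 libraries of 48 hpf and 2907, 2633, 2937 and 3264 FPKM in those of 120 hpf. No 48 hpf value came near the lowest value of 120 hpf, and the log2 change was 10.76 ± 0.19 (SE), adjusted p = 3.32e-11. Chymotrypsinogen ctrb1 went from 0.44, 0.15, 0.91 and 0.07 to 2998, 2905, 2828 and 3455 FPKM (log2 change 11.83 ± 0.24, adjusted p = 9.89e-11). Elastase ela2 reached 844 ± 164 FPKM, carboxypeptidase cpa5 1584 ± 91.4 FPKM and the bile-salt-dependent lipase cel.1 232 ± 12.6 FPKM, from 0.838 ± 0.378, 4.04 ± 1.24 and 0.0525 ± 0.0806 FPKM. Together the 22 genes held 0.00174 ± 0.00025% of the summed FPKM at 48 hpf and 3.01 ± 0.209% at 120 hpf. Trypsin, chymotrypsin and elastase genes lie in families of near-identical copies, so the split of reads among the copies is uncertain.

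The endocrine pancreas list, in contrast, had no common direction: 10 of 21 tested genes rose and 8 fell. At least 2-fold, 8 were higher and 4 lower. Rises and falls left a median of 0.03, which turned to -0.09 under median-ratio scaling. Insulin (ins) measured 23.4, 21.4, 23.3 and 22.4 FPKM at 48 hpf and 41.5, 50.9, 44.6 and 54.1 FPKM at 120 hpf, a log2 change of 1.05 ± 0.09 (adjusted p = 2.65e-06). Glucagon gcga (log2 change 1.37), the somatostatin sst1.1 (1.89), the pancreatic regulator pdx1 (1.52) and the prohormone convertase pcsk1 (2.56) rose too. Transcription factors listed for endocrine precursors went the other way, with insm1a at 69 ± 5.91 FPKM falling to 15.12 ± 1.33 (log2 change -2.15, adjusted p = 1.29e-08) and insm1b at 43.3 ± 10.6 to 14.1 ± 0.969 FPKM. In RNA of whole embryos neither these falls nor the rises above can be assigned to the pancreas, and insm1a is also in the list of neural progenitors. The somatostatin sst2 (6.62 ± 1.32 and 5.42 ± 1.63 FPKM), sst1.2 and neurod1 did not pass the test.

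Genes of the list written for liver plasma proteins fell into those already high at 48 hpf and those that appeared later. In RNA of whole embryos, the levels at 48 hpf cannot be assigned to the liver. The liver fatty-acid binding protein fabp10a, a marker of differentiated zebrafish hepatocytes, read 0.64, 0.49, 1.66 and 1.7 FPKM at 48 hpf and 693, 701, 1095 and 778 FPKM at 120 hpf. The stages were far apart, with replicate 3 the highest of 120 hpf, and the log2 change was 9.04 ± 0.27 (adjusted p = 1.3e-09). Transthyretin ttr (0.05 ± 0.0577 to 60 ± 6.64 FPKM) and the vitamin D binding protein gc (0.655 ± 0.803 to 83.3 ± 18.3 FPKM) rose in the same way. Fibrinogen fga, in contrast, was at 60 ± 8.98 FPKM at 48 hpf and 52.4 ± 11 at 120 hpf (adjusted p = 0.254). Transferrin tfa, which the yolk syncytial layer also makes in the early embryo, read 335, 256, 268 and 266 FPKM at 48 hpf and 259, 393, 489.7 and 414 FPKM at 120 hpf. Its groups overlapped, with 120 hpf replicate 1 at the level of 48 hpf, and its call (log2 change 0.44 ± 0.17, adjusted p = 0.0454) was lost without any library except the replicate 1 of either stage (up to 0.121) and under both other scalings. The antiprotease serpina1 measured 176 ± 21.7 and 223 ± 34.2 FPKM, a call (adjusted p = 0.0311) lost without replicate 2 or 3 of 48 hpf or replicate 3 or 4 of 120 hpf (up to 0.0879). The call was also lost under both other scalings and in a fit of all 16 libraries (adjusted p up to 0.215 in limma over all settings). Of 29 tested plasma protein genes, 16 were higher and 3 lower (median 0.44). The lower ones were the apolipoproteins apoba (log2 change -2.29) and apobb.1 (-0.76) and complement c3a.1 (-0.57), whose call was lost in a fit of all 16 libraries.

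In the list written for liver metabolism, genes were mostly higher, 25 of 32 (median 3.19). Neither these rises nor the falls below can be assigned to the liver in RNA of whole embryos. The cytochrome P450 gene cyp3a65 read 0.36, 0.61, 0.4 and 0.5 FPKM and then 474, 356, 483 and 486 FPKM, a log2 change of 8.86 ± 0.12 (adjusted p = 6.11e-12). Steep rises were also measured for agxtb (0.215 to 128 FPKM, glyoxylate detoxification), cyp2ad2 (0.07 to 58.7 FPKM), tdo2a (0.05 to 33 FPKM, tryptophan breakdown) and hpda (1.87 to 73.6 FPKM, tyrosine breakdown). The gluconeogenic enzyme pck1 rose from 11.9 ± 2.23 to 138 ± 46.6 FPKM. Betaine-homocysteine methyltransferase bhmt was among 5 genes that fell, from 1795, 1299, 1324 and 1627 FPKM to 669, 721, 605 and 896 FPKM (log2 change -1.07 ± 0.14, adjusted p = 6.52e-05). Its stages did not overlap. The others were hao1 (-1.38), the urea cycle enzymes cps1 (-2.25) and otc (-0.68), and the sulfotransferase sult2st1 (-0.23). The last call was lost without 48 hpf replicate 1 or 3 or 120 hpf replicate 2 or 4 (adjusted p up to 0.0669 in limma).

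In the list written for the intestine, brush-border genes appeared while several lipoprotein genes declined. RNA of whole embryos does not place these declines in the gut. Villin vil1, which bundles actin in microvilli, read 0.36, 0.33, 0.6 and 0.78 FPKM at 48 hpf and 82.5, 78.9, 104 and 91.1 FPKM at 120 hpf (log2 change 6.48 ± 0.15, adjusted p = 2.4e-10). The aminopeptidase anpepb (0.113 to 95.8 FPKM), the ileal bile-acid binding protein fabp6 (0.128 to 433 FPKM) and chia.2 (0.47 to 924 FPKM) were at or near 0 at 48 hpf. Intestinal fatty-acid binding protein fabp2 was present before, at 102 ± 18.9 FPKM, and rose to 811 ± 103 FPKM. In the whole list 22 of 32 genes rose and 5 fell (median 2.25). Those that fell were the apolipoproteins apoa1a, apoa4a, apoea and apoeb, and adgra3. The list written for the swim bladder, a gas-filled outgrowth of the gut, had 4 higher and 5 lower of 10. The phospholipid-binding anxa5b rose (14.8 ± 2.01 to 41.2 ± 4.26 FPKM), elovl1a fell (-1.10) and hprt1l was called higher by a small amount (0.30), a call lost under both other scalings and in replicates 1 to 3 only (adjusted p up to 0.284 in limma). Smooth muscle actin acta2 rose most (4.86 ± 0.943 to 178 ± 8.58 FPKM), and sox2 and shha were among those that fell.

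Several apolipoprotein genes, which the yolk syncytial layer uses to export yolk lipid, fell. Apolipoprotein A-I (apoa1a) read 4734, 4116, 3707 and 4319 FPKM at 48 hpf and 1939, 1963, 1561 and 2042 FPKM at 120 hpf. Every 120 hpf value lay below every 48 hpf value, with a log2 change of -1.17 ± 0.11 (adjusted p = 4.77e-06). The apolipoprotein B gene apobb.2 fell from 21 ± 2.33 to 0.22 ± 0.113 FPKM, apobb.1 from 428 ± 71 to 251 ± 18.6 FPKM, and apoc1 from 1702 ± 181 to 528 ± 92.6 FPKM, while apoa1b did not pass (log2 change 0.17). It was called higher without 120 hpf replicate 1 (adjusted p = 0.0447 in limma) and after quantile normalization (0.0259). The scavenger receptor cd36 rose from 1.25 ± 0.176 to 112 ± 13.9 FPKM (log2 change 6.01 ± 0.11, adjusted p = 4.12e-11). Fatty acid synthase fasn (1.93) and the lipoprotein assembly factor mtp (1.21) rose as well, and 33 of 60 lipid genes were higher and 15 lower.

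The photoreceptors of the retina gave the next steepest rise. Of 30 tested cone genes, 26 were higher and 2 lower (median log2 change 5.18). The ultraviolet opsin opn1sw1 read 0.21, 0.03, 0.21 and 0.88 FPKM at 48 hpf and 759, 859, 878 and 837 FPKM at 120 hpf (log2 change 10.06 ± 0.24, adjusted p = 2.57e-10). Within 48 hpf, replicate 4 was the highest. At 120 hpf the cone opsins ranked opn1sw1, then the red opsin opn1lw2 at 247 ± 48 FPKM, the blue opsin opn1sw2 at 216 ± 25.2 FPKM and the green opsin opn1mw1 at 140.5 ± 28.9 FPKM. The ranges of opn1lw2 and opn1sw2 overlap, so these neighbours are not ordered by these data. The second red opsin, opn1lw1, stayed under the filter at 0.23 ± 0.247 FPKM at 120 hpf and was not tested, and it is close in sequence to opn1lw2. The phosphodiesterase subunit pde6h (0.785 to 960.1 FPKM) and the transducin subunits gnb3b (0.217 to 172 FPKM) and gngt2b (1.03 to 308 FPKM) rose alongside. The early regulators moved little: crx (31.1 and 39.2 FPKM) and thrb did not pass the test, and nr2e3 (-0.55) and tbx2b (-0.30) fell. The call of nr2e3 was lost without 48 hpf replicate 3 (adjusted p = 0.0559 in limma) or replicate 4 (0.052).

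Rod genes followed, with 24 of 27 higher and gnb1b alone lower (median 3.19). Rhodopsin (rho) read 2.58, 1.78, 3.3 and 8.79 FPKM at 48 hpf and 1400.5, 1404, 1509.6 and 1393 FPKM at 120 hpf, a log2 change of 8.49 ± 0.34 (adjusted p = 1.22e-08). The 4 larval values were within a narrow band, and 48 hpf replicate 4 was the highest of its stage. Rod transducin gnat1 (0.775 to 53.7 FPKM) and the outer-segment proteins prph2a (0.113 to 41.9 FPKM) and prph2b (0.065 to 55.5 FPKM) rose with the phosphodiesterase subunit pde6b (0.26 to 6.1 FPKM), whereas the rod regulator nrl stayed at 2.03 and 2.33 FPKM and did not pass. In the list written for the retinal pigment epithelium, which recycles the visual pigment, the copies of a gene differed. Whole-embryo RNA cannot assign either change to that tissue. The isomerase rpe65a rose from 3.95, 2.99, 3.85 and 6.93 FPKM to 119, 145, 157 and 165 FPKM (log2 change 4.95 ± 0.20, adjusted p = 1.41e-08). Its copy rpe65b fell from 20.1, 19.8, 20.2 and 18.5 FPKM to 5.3, 6.62, 6.96 and 6.28 FPKM (log2 change -1.57 ± 0.09, adjusted p = 1.78e-07). Neither gene's stages overlapped. The acyltransferases lrata (-1.77) and lratb (-0.50) fell, and the other visual cycle genes were mostly higher (14 of 18, median 1.07), among them irbp (0.685 to 162 FPKM), rgra and rlbp1b, as did rlbp1a (1.69).

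Lens crystallins were high at 48 hpf and higher later, 41 of 44 tested (median 1.14), and their share of the summed FPKM went from 1.67 ± 0.252 to 3.54 ± 0.127%. The gamma-crystallin crygn2 rose from 588 ± 52.8 to 1102 ± 66.4 FPKM and cryba1b from 621 ± 65.1 to 947 ± 43 FPKM. The alpha-crystallin cryaa rose (26.3 ± 4.02 to 86.5 ± 2.68 FPKM), and so did crygm2d12 (206 ± 43.2 to 501 ± 32.4 FPKM). The copy crygm2d11 changed most, from 15.5, 4.17, 10 and 27.3 FPKM to 529, 539.8, 542 and 544 FPKM (log2 change 5.47 ± 0.42, adjusted p = 1.31e-06), with a wide spread at 48 hpf and almost none at 120 hpf. Only crygmxl1 fell (-1.10). The gamma-M crystallins are near-identical copies, so values of single members are uncertain.

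In the lists written for the nervous system, genes of dividing and newly committed cells mostly fell and genes of working synapses mostly rose. Of 38 progenitor genes 31 were lower and 1 higher (median -1.61). The proneural factor neurog1 read 33.3, 49.5, 41.4 and 35.7 FPKM at 48 hpf and 3.48, 3.36, 3.53 and 4.13 FPKM at 120 hpf (log2 change -3.28 ± 0.12, adjusted p = 7.75e-09). Replicate 2 was the highest of its stage. The Notch receptor notch1a had the same order of replicates at the top, at 28.4, 43.4, 32.2 and 29 FPKM, and fell to 5.16, 6.77, 6.44 and 5.42 FPKM (log2 change -2.37 ± 0.14, adjusted p = 1.99e-07). Its ligands dla (-2.87), dlb (-3.39) and dld (-2.96) fell too, and the stem cell factor sox2 fell less (-0.65). The retinal homeobox gene rx1, which is also active in photoreceptors, was the member that rose (8.25 ± 2.86 to 18 ± 1.09 FPKM).

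Of 65 neuronal and synaptic genes, 56 were higher (median 1.22). The vesicle fusion protein snap25a read 65.9, 61.5, 61.7 and 66.5 FPKM at 48 hpf and 177, 173, 172 and 176 FPKM at 120 hpf, with little spread within a stage (log2 change 1.44 ± 0.06, adjusted p = 1.02e-08). The calcium sensor syt1a rose by 1.86 on the log2 scale. The complexins cplx4a (0.39 to 23.9 FPKM) and cplx3b (1.95 to 29.7 FPKM), known from ribbon synapses of the retina, rose most. The 5 that fell were the tubulin tubb5 (-1.69), elavl3 (181 ± 12.7 to 84 ± 3.73 FPKM), gap43 (95.5 ± 10.1 to 54.3 ± 2.79 FPKM), stmn2b (-0.82) and the neurofilament gene nefmb (-0.37). The other neurofilament genes of the list, nefla (1.22), neflb (0.36) and nefma (0.75), rose. The pan-neuronal elavl4 did not pass (70.9 ± 8.76 and 75.7 ± 2.83 FPKM, adjusted p = 0.322).

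Myelin genes, which wrap axons, went both ways. Myelin basic protein mbpa was at 0.07, 0, 0 and 0.12 FPKM at 48 hpf and 47.1, 52.5, 52.4 and 45.5 FPKM at 120 hpf (log2 change 6.51 ± 0.11, adjusted p = 2.43e-11). Myelin protein zero mpz (1.49 to 14.1 FPKM), mag (0.635 to 14.6 FPKM) and mbpb (22.6 to 71.8 FPKM) rose, and the precursor factors olig2 (-1.50) and nkx2.2a (-1.13) fell. Over the whole list 16 of 27 were higher and 8 lower (median 0.80), and genes of myelin proteins were among the lower ones too. Among 23 glial genes 12 rose and 4 fell (median 0.32). Glutamine synthetase glula (66.7 ± 6.29 to 202 ± 17.7 FPKM), the glutamate transporter slc1a2b (96.7 ± 8.9 to 178 ± 11.3 FPKM) and the prostaglandin synthase ptgdsb.1 (30.2 ± 2.76 to 393 ± 74.1 FPKM) rose. The radial glial gene fabp7a (519 ± 121 to 222 ± 25.8 FPKM), slc1a3a (-0.87), sox9b (-1.54) and her4.1, which the table lists as LOC100149863, were those that fell, and slc1a3b did not pass (15 ± 1.62 and 15.5 ± 2.07 FPKM).

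**Figure D2:**
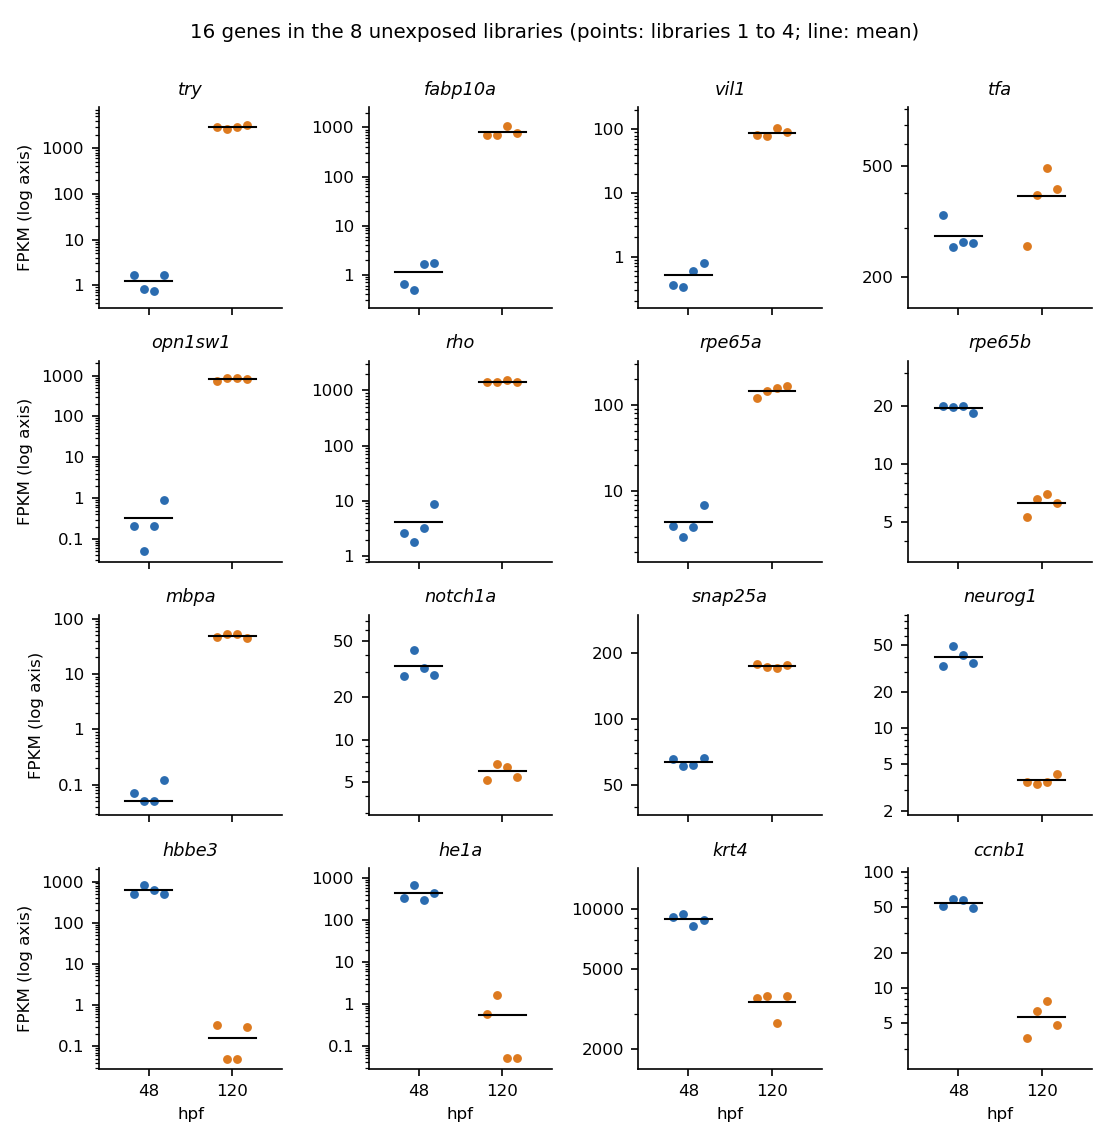
FPKM of 16 named genes in each unexposed library on a log axis, with values under 0.05 FPKM drawn at 0.05. Blue points are the 4 libraries of 48 hpf, orange points the 4 of 120 hpf, and the numbers beside the axis ticks give FPKM; the stages do not overlap in any panel except tfa.

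Hormone genes of the hypothalamus and pituitary were 19 higher and 3 lower of 25 tested (median 1.05). Growth hormone gh1 read 0.16, 0.16, 0.37 and 0.25 FPKM and then 10.4, 8.67, 11.4 and 10.6 FPKM (log2 change 3.88 ± 0.14, adjusted p = 4.34e-09). Proopiomelanocortin pomca rose from 1.84 ± 0.318 to 7.99 ± 0.833 FPKM and the peptide vip from 1.22 ± 0.522 to 16.5 ± 1.03 FPKM. The thyrotropin subunit tshba did not pass (0.585 ± 0.0947 and 0.56 ± 0.154 FPKM). Prolactin (prl) was called lower (2.88 ± 0.505 to 2.12 ± 0.274 FPKM, adjusted p = 0.0381), a call lost without replicate 1 or 3 of 48 hpf or replicate 1 or 4 of 120 hpf (up to 0.112). The call was also lost with the replicate number as a block and in a fit of all 16 libraries (adjusted p up to 0.29 in limma over all settings). In the thyroid and steroid list 10 of 20 rose and 5 fell (median 0.51). Thyroglobulin tg (0.305 to 4.41 FPKM), the deiodinase dio1 (0.647 to 26.2 FPKM), which activates thyroid hormone, and dio3b (1.66 to 12.2 FPKM), which inactivates it, were higher. Thyroid peroxidase tpo was under the filter. The steroid carrier star rose by 0.91 and cyp17a1 fell (-1.70). The glucocorticoid-responsive chaperone fkbp5 ranged from 2.96 to 10.8 FPKM at 48 hpf and from 6.88 to 42.1 FPKM at 120 hpf, so its groups overlapped in spite of the call (log2 change 1.93 ± 0.52, adjusted p = 0.00783 in limma), which was lost in a fit of all 16 libraries.

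Clock genes rose strongly, 24 of 33 (median 2.12), and the labels give the age in hpf but not the hour of the day at collection. The repressor nr1d1 read 0.7, 0.33, 0.36 and 1.02 FPKM at 48 hpf and 87.6, 78.9, 87.8 and 66.6 FPKM at 120 hpf (log2 change 6.23 ± 0.19, adjusted p = 1.54e-09). The light-induced period gene per2 went from 1.31, 1.1, 1.38 and 1.87 to 60.5, 52.1, 62.1 and 80.4 FPKM (log2 change 5.07 ± 0.15, adjusted p = 1.33e-09). Light-induced cry5 (0.455 to 34.5 FPKM) and cry1aa (3.43 to 64.5 FPKM), the period gene per1a (0.212 to 10.8 FPKM) and the factor tefa (14.9 to 123 FPKM) rose as well. At 120 hpf the libraries differed for per3, which was 25.9, 20.4, 4.51 and 6.88 FPKM in replicates 1 to 4. The factor nfil3-5 fell (38.8 ± 2.94 to 9.05 ± 0.535 FPKM). Pineal aanat2, which makes melatonin, did not pass (1.39 ± 0.457 and 1.08 ± 0.146 FPKM).

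Fast skeletal muscle genes held 11.8 ± 0.241% of the summed FPKM at 48 hpf and 13.0 ± 0.587% at 120 hpf, and copies of the same protein moved in opposite directions. Of 66 fast muscle genes 31 rose and 20 fell (median 0.19), a majority that flipped to 23 and 24 under median-ratio scaling. The troponin T copy tnnt3a fell from 1065, 1331, 1200 and 1059 FPKM to 117, 138, 152 and 153 FPKM (log2 change -3.05 ± 0.11, adjusted p = 4.23e-09). The copy tnnt3b moved the other way, from 2768, 2542, 2524 and 2846 to 3675, 4034, 4023 and 3762 FPKM (log2 change 0.54 ± 0.08, adjusted p = 0.000112). The calcium buffer pvalb1 rose from 5314 ± 625 to 9243 ± 515 FPKM and pvalb2 from 3243 ± 306 to 6673 ± 452 FPKM, and the troponin I tnni2a.1 appeared (0.265 to 71.8 FPKM). Of the fast myosins, myhz1.1 rose (2671 ± 318 to 3538 ± 282 FPKM) and myhz2 did not pass (744 ± 63.2 and 843 ± 70.5 FPKM). Among 17 slow fibre genes 8 rose and 4 fell, which became 8 and 8 under median-ratio scaling, and 7 and 7 after quantile normalization. The myosin smyhc1 did not pass (225 ± 18 and 204 ± 7.3 FPKM), and smyhc2 rose from 3.33 ± 0.999 to 28.5 ± 2.13 FPKM, and the troponin C tnnc1b fell (198 ± 8.38 to 146 ± 6.58 FPKM).

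Myogenic factors fell more often than they rose, 10 against 6 of 20 (median -0.21). The determination factor myod1 (16.5 ± 3.67 to 6.3 ± 0.951 FPKM), the precursor factors pax3a (-1.92) and pax7a (-0.52) and six1a (-1.16) fell. Myogenin myog was level at 3.57 ± 0.723 and 3.53 ± 0.265 FPKM (adjusted p = 0.984), a log2 change that became -0.32 after quantile normalization (adjusted p = 0.0305 in limma), and mef2aa rose (0.999). In the heart list 11 of 29 rose and 6 fell, which turned to 9 and 11 after quantile normalization. Ventricular myosin vmhc rose from 8.85 ± 0.735 to 23.3 ± 2.45 FPKM and the calcium pump atp2a2a from 5.84 ± 0.75 to 24.4 ± 0.468 FPKM. Cardiac myl7 stayed at 31.7 ± 2.51 and 32 ± 2.5 FPKM (adjusted p = 0.887), and the natriuretic peptide nppa fell from 15.2 ± 1.93 to 9.89 ± 1.15 FPKM, while atrial myh6 did not pass (1.46 ± 0.35 and 1.65 ± 0.249 FPKM).

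Globin RNA was far lower at 120 hpf for the embryonic forms. The beta-globin hbbe3 read 491, 809, 633 and 506 FPKM at 48 hpf and 0.32, 0, 0 and 0.3 FPKM at 120 hpf (log2 change -9.88 ± 0.21, adjusted p = 1.43e-10). The alpha-globin hbae3 was among the most abundant transcripts of 48 hpf at 3984, 4792, 3724 and 3727 FPKM and read 300.2, 395, 658 and 512 FPKM at 120 hpf (log2 change -3.17 ± 0.21, adjusted p = 3.82e-07). Replicate 2 was the highest of 48 hpf in both, and replicate 3 the highest of 120 hpf in hbae3. The globins hbbe1.1 (2826 ± 459 to 392 ± 97.5 FPKM) and hbae1 (409 ± 183 to 53 ± 26 FPKM) fell too. The beta-globin hbbe2 fell by much less, from 298 ± 60.31 to 169 ± 24.8 FPKM. Of 16 genes 10 fell, and the 5 that rose were globins of other tissues: myoglobin mb, the cytoglobins cygb1 and cygb2, neuroglobin ngb (1.33 to 9.26 FPKM) and xgb. The call of xgb was lost without 48 hpf replicate 1 or 4 or 120 hpf replicate 1 or 2 (adjusted p up to 0.0675 in limma), and its log2 change was -0.02 after quantile normalization. Globin genes are near-identical copies, so single values are uncertain. Their summed share went from 2.66 ± 0.283 to 0.338 ± 0.0936% of all FPKM. Genes of red cell formation fell with them, 19 of 32 (median -0.51), among them the haem enzyme alas2 (53.4 ± 7.05 to 8.34 ± 2.05 FPKM), the anion exchanger slc4a1a (50.1 ± 7.42 to 12.4 ± 4.26 FPKM) and gata1a (-1.29) and klf1 (-0.95). The ammonia channel rhag (39.4 ± 3.52 to 83.2 ± 5.79 FPKM) and tspo (33.2 ± 2.46 to 68.5 ± 13.7 FPKM) were among 6 that rose.

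White blood cell genes had no common direction: of 33 genes 10 rose and 7 fell, and quantile normalization turned this to 6 and 10. Lysozyme lyz read 73.1, 100.3, 84.8 and 68.4 FPKM and then 12.3, 17.4, 45.4 and 18.4 FPKM (log2 change -1.95 ± 0.32, adjusted p = 0.000357). The neutrophil peroxidase mpx measured 7.54 ± 1.01 and 4.62 ± 2.55 FPKM, and its call (adjusted p = 0.0277) was lost without 48 hpf replicate 2 or 3 or 120 hpf replicate 1, 2 or 4 (up to 0.0747). The macrophage gene mpeg1.2 rose from 1.18, 1.11, 0.78 and 1.44 to 9.52, 7.77, 26.4 and 6.74 FPKM, and ctss2.2 from 2.08, 1.33, 0.89 and 2.02 to 8.26, 5.3, 27.4 and 9.66 FPKM. The macrophage gene mfap4 fell (-1.18), and mpeg1.1 (0.69) was called higher, a call lost without 48 hpf replicate 2 or 3 or 120 hpf replicate 3 (adjusted p up to 0.0579 in limma). The call of mpeg1.1 was also lost after quantile normalization and in a fit of all 16 libraries (adjusted p up to 0.304 in limma). In lyz, mpeg1.2 and ctss2.2 alike, 120 hpf replicate 3 was the highest of its stage. Among 27 complement genes 10 rose and 7 fell, equal counts of 9 and 9 after quantile normalization and 8 and 8 under median-ratio scaling. Factor D (cfd) rose from 10.1 ± 2.18 to 103 ± 14.7 FPKM and the lectin hbl3 from 0.2 ± 0.098 to 14 ± 3.68 FPKM, c9 and cfb did not pass, nor did c6, and masp1 fell (-1.84).

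Among thymic and lymphocyte genes, of which 12 of 23 were tested, the recombinase gene rag1, needed to assemble antigen receptors, read 0.32, 0.11, 0.26 and 0.29 FPKM at 48 hpf and 1.32, 2.07, 2.24 and 3.04 FPKM at 120 hpf (log2 change 1.81 ± 0.21, adjusted p = 2.27e-05). Its partner rag2 and the T cell kinase lck stayed under the filter. The lymphoid factor ikzf1 rose (0.57), a call not made after quantile normalization. Of 12 tested genes 7 rose and 3 fell, and 4 and 3 after quantile normalization. Vessel genes fell in 15 of 31 cases and rose in 4 (median -0.30). The endothelial factor fli1a fell from 16.6 ± 1.11 to 8.92 ± 0.533 FPKM, and the scavenger receptor stab2 (log2 change -1.36) and notch1b (-1.58) fell too. As notch1b is also in the list of neural progenitors, its fall cannot be assigned to vessels. The growth factor receptor kdrl (9.03 ± 0.665 and 10.4 ± 0.544 FPKM, adjusted p = 0.0561) and the cadherin cdh5 did not pass.

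Transcripts of the hatching gland's own enzymes were near 0 at 120 hpf. The hatching enzyme he1a (he1.1) read 350.1, 681, 304 and 447 FPKM at 48 hpf and 0.57, 1.62, 0 and 0 FPKM at 120 hpf (log2 change -8.94 ± 0.44, adjusted p = 5.04e-08). Its near-identical copy he1b (he1.2), with which reads may be shared, read 136, 294, 137 and 167 FPKM and then 0, 0.89, 0 and 0 FPKM (log2 change -8.08 ± 0.36, adjusted p = 2.33e-08). The gland's protease ctslb went from 41.6, 160.4, 61.8 and 98.6 FPKM to 0.16, 0.45, 0 and 0.19 FPKM (log2 change -6.88 ± 0.36, adjusted p = 8.13e-08). In all 3 genes, replicate 2 held the highest value of 48 hpf. Of 10 tested genes of the list 5 fell, 1 rose (tmprss13a), and the gland's regulator klf17 was called lower by a small amount (-0.39), a call lost without any library except 48 hpf replicate 3 and 120 hpf replicate 2 (adjusted p up to 0.0974 in limma). Of 18 tested rows that the table annotates as cathepsin L, 16 fell and 2 rose (cts12 and ctsl.1). Of these, 8 were over 20 FPKM in every library of 48 hpf and under 1 FPKM in every library of 120 hpf, among them si:dkey-26g8.4 (328 ± 167 to 0.193 ± 0.142 FPKM), MGC174155 (268 ± 169.9 to 0.045 ± 0.0526 FPKM) and wu:fa26c03 (200.2 ± 75.1 to 0.0575 ± 0.0723 FPKM). Summed over these 8 rows, 48 hpf replicate 2 stood at 2331 FPKM against 835 to 1338 FPKM in the other 3, and the libraries of 120 hpf at 0.63 to 2.38 FPKM. The sum over all 18 rows was 471 to 637 FPKM at 120 hpf, most of it from ctsla (363 ± 36.8 FPKM, from 566 ± 148 FPKM) and from ctsl.1 (162 ± 37.8 FPKM, from 1 ± 0.402 FPKM). Such rows are close copies, so the split of reads among them is uncertain.

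Skin keratins changed in both directions. The embryonic keratin krt4 fell from 9130.2, 9398, 8224 and 8792 FPKM to 3587, 3679.8, 2693 and 3689 FPKM (log2 change -1.39 ± 0.11, adjusted p = 1.91e-06). Basal keratin krt5 rose from 876, 905, 764 and 947 FPKM to 1908, 1698, 1530.1 and 2035 FPKM (log2 change 1.03 ± 0.10, adjusted p = 9.19e-06). Each pair of groups was separate, and replicate 3 was the lowest of 120 hpf in both. The keratins krt92 (50.6 ± 14.5 to 471 ± 3.36 FPKM), krt1-19d (7.08 ± 2.25 to 159.9 ± 13.4 FPKM) and krt17 (89 ± 32.9 to 402 ± 79.4 FPKM) rose, and cyt1 fell (5353 ± 436 to 2941 ± 498 FPKM). In the list as a whole 14 of 42 rose and 19 fell (median -0.11). In the list written for ionocytes, the ion-transporting cells of the skin, 22 of 29 genes were higher (median 1.003). The carbonic anhydrase ca2 alone was lower, a call lost in replicates 1 to 3 only and in a fit of all 16 libraries. As whole embryos were measured, these changes cannot be assigned to the skin. The ammonia channel rhcga rose from 0.42, 0.11, 0.06 and 0.16 FPKM to 49.1, 57.3, 77.8 and 51.5 FPKM (log2 change 6.44 ± 0.18, adjusted p = 9.78e-10). The calcium channel trpv6 (1.05) and the chloride cotransporter slc12a10.2 (1.77) rose, and the proton pump subunit atp6v1aa was called higher (0.30), a call lost without any library except 48 hpf replicates 3 and 4 and 120 hpf replicate 1 (adjusted p up to 0.0959 in limma). The call of atp6v1aa was also lost under median-ratio scaling (adjusted p up to 0.219 in limma over all settings). The channel rhbg (9.77 ± 2.25 to 103 ± 11.2 FPKM) and the sodium pump subunit atp1a1a.4 (33 ± 4.21 to 214 ± 26 FPKM) rose too, and the ionocyte regulator foxi3b did not pass (6.7 ± 1.8 and 7.42 ± 1.97 FPKM).

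Cartilage and bone genes rose in 17 and fell in 9 of 39 cases, 14 and 16 after quantile normalization and 13 and 13 under median-ratio scaling. Their median of -0.01 went against the larger count. The cartilage matrix protein matn1 read 2.74, 0.33, 0.25 and 4.42 FPKM at 48 hpf and 83.6, 135, 139 and 130.1 FPKM at 120 hpf (log2 change 6.08 ± 0.55, adjusted p = 4.31e-06). At 48 hpf replicates 1 and 4 stood above replicates 2 and 3. Collagen X (col10a1a), made by bone-forming cells in fish, rose from 14.1 ± 6.62 to 121 ± 14.5 FPKM, osteopontin spp1 from 0.455 ± 0.107 to 19 ± 3.08 FPKM and aggrecan acana from 2.04 ± 0.631 to 10.5 ± 1.61 FPKM. Collagen II (col2a1a) did not pass (388 ± 44.5 and 350.2 ± 70.5 FPKM, adjusted p = 0.334), nor did the bone regulator sp7. Fin fold genes declined, 16 of 21 (median -0.74), among them the actinodin and1 (-0.36), fras1 (-0.75), tnw (204 ± 29.4 to 81.4 ± 2.54 FPKM), msx3 and dlx5a. The other actinodin, and2, measured 315 ± 25.1 and 369 ± 26.8 FPKM, and its call as higher (adjusted p = 0.0257) was lost under both other scalings and without replicate 2 or 3 of either stage (up to 0.076).

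Pigment cell genes fell in 21 and rose in 8 of 34 cases (median -0.65). The pteridine enzyme gch2, used by yellow pigment cells, fell from 169, 157, 170.2 and 151 FPKM to 18.2, 15.4, 17.9 and 20 FPKM (log2 change -3.15 ± 0.09, adjusted p = 7.09e-10). The related enzyme pts (-2.55) and the melanin enzymes dct (114 ± 2.65 to 48.7 ± 1.14 FPKM) and tyrp1b (152 ± 11.4 to 85.2 ± 1.78 FPKM) fell as well. Purine genes of reflective cells differed between copies: pnp4b rose from 0.443 ± 0.139 to 45.2 ± 5.37 FPKM while pnp4a did not pass (14.4 ± 2.97 and 17.1 ± 4.03 FPKM).

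In the list written for the inner ear and hair cells, 18 of 30 genes rose and 6 fell (median 0.78). These changes cannot be assigned to the ear in RNA of whole embryos. The hair cell synapse protein otofa rose from 1.33 ± 0.119 to 3.5 ± 0.571 FPKM and the scaffold ush1c, which the gut also uses, from 0.613 ± 0.157 to 11.4 ± 2.79 FPKM. The hair cell determination factor atoh1b fell (-1.87) and parvalbumin pvalb9 from 200.2 ± 9.16 to 43.6 ± 6.86 FPKM. The tectorial proteins tecta and otog did not pass, and otog turned to -0.54 after quantile normalization. Pronephric tubule genes rose, with 18 of 33 kidney genes higher and 6 lower (median 0.37). The tubule cadherin cdh17 rose from 17.2 ± 1.46 to 54.8 ± 6.14 FPKM and the bicarbonate transporter slc4a4a from 7.99 ± 0.446 to 28.4 ± 1.85 FPKM. The phosphate transporter slc20a1a rose too (0.72). The developmental regulators lhx1a (-1.09) and pax2a (-0.96) fell, and the podocyte gene nphs1 was near 1 FPKM and did not pass. Germ line genes were low, with 7 of 22 tested. The germ cell gene nanos3 fell from 1.22 ± 0.301 to 0.15 ± 0.159 FPKM, zp2.1 fell too, piwil1 and tdrd1 were called higher at under 1 FPKM, calls that did not hold after quantile normalization (counts of 0 higher and 4 lower), and ddx4 did not pass and dnd1 was under the filter.

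Cell division was the most uniform fall. Of 72 cell cycle and DNA replication genes 70 were lower, against a background of 29.0% lower (median log2 change -1.99). Cyclin B1 (ccnb1), which drives entry into mitosis, read 51.4, 58.8, 58.1 and 49.4 FPKM at 48 hpf and 3.68, 6.38, 7.74 and 4.84 FPKM at 120 hpf (log2 change -3.20 ± 0.18, adjusted p = 1.43e-07). The proliferation marker mki67 read 76.7, 85.6, 94.7 and 79.8 FPKM and then 13.2, 16.4, 14.9 and 11.3 FPKM (log2 change -2.56 ± 0.11, adjusted p = 2.48e-08). Ribonucleotide reductase rrm2 (167 ± 10.4 to 20.4 ± 3.72 FPKM), pcna (280.5 ± 37.3 to 78.4 ± 15 FPKM), cdk1 (50.1 ± 5.15 to 9.19 ± 1.96 FPKM) and the helicase subunit mcm5 (47.2 ± 5.93 to 17 ± 3.4 FPKM) fell too. The only member that rose was the cyclin-dependent kinase inhibitor cdkn1a, from 1.97, 1.9, 2.17 and 2.6 FPKM to 11.6, 14.7, 11.7 and 11.3 FPKM (log2 change 2.27 ± 0.12, adjusted p = 8.21e-08), and cdkn1bb did not pass. Transcripts of dividing cells were still measured at 120 hpf, since the list held 0.698 ± 0.0428% of the summed FPKM at 48 hpf and 0.169 ± 0.023% at 120 hpf.

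Chromatin and RNA-processing genes fell with them. Of 42 chromatin genes 37 were lower (median -1.24). Only dnmt3ab was higher, a call lost after quantile normalization and under median-ratio scaling. The chromatin protein hmga1a, abundant in embryos, read 1099.8, 1470.5, 1376 and 1402 FPKM at 48 hpf and 200.1, 244, 252 and 211 FPKM at 120 hpf (log2 change -2.55 ± 0.11, adjusted p = 1.87e-08). The nucleosome-binding hmgn2 fell from 1370 ± 132 to 309 ± 55.4 FPKM, the methyltransferase dnmt1 from 27.7 ± 1.65 to 12.3 ± 1.44 FPKM and the Polycomb enzyme ezh2 from 16.1 ± 2.51 to 3.31 ± 0.515 FPKM. Of 57 splicing and RNA-binding genes 51 fell and 3 rose (hnrnpd, srsf7b and sf3b1, the last not under median-ratio scaling), with a median of -1.1998. The splicing factors srsf3b (-1.47) and snrpd1 (-1.59) fell. The RNA-binding proteins cirbpa (694 ± 75.5 to 158 ± 12.7 FPKM), khdrbs1a (664 ± 59.5 to 183 ± 20.5 FPKM) and hnrnpa0l (615 ± 48 to 162 ± 20.9 FPKM) were among the most abundant of them.

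Cytosolic ribosomal proteins moved little, and how many were called rests on the scale: 49 of 83 were lower (median -0.21), 18 after quantile normalization and 69 under median-ratio scaling. Without 48 hpf replicate 1 the count was 27, and without 120 hpf replicate 2 it was 32. The ribosomal stalk protein rplp0 measured 2392 ± 168 and 2099 ± 38.2 FPKM, with a call (adjusted p = 0.0412) lost when any library except 48 hpf replicate 4 was left out, and a log2 change of 0.02 after quantile normalization. Neither rps2 (2483 ± 134 and 2255 ± 26.7 FPKM) nor rpl5b (1155 ± 70.8 and 1103 ± 25.8 FPKM) passed. Their summed share was 18.8 to 20.9% of FPKM at 48 hpf and 17.2 to 17.6% at 120 hpf. The called rises were rps8b (1.43 ± 0.226 to 9.67 ± 1.21 FPKM), for which a near-identical copy makes the value uncertain, and rplp2, whose call was lost under both other scalings.

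**Figure D3:**
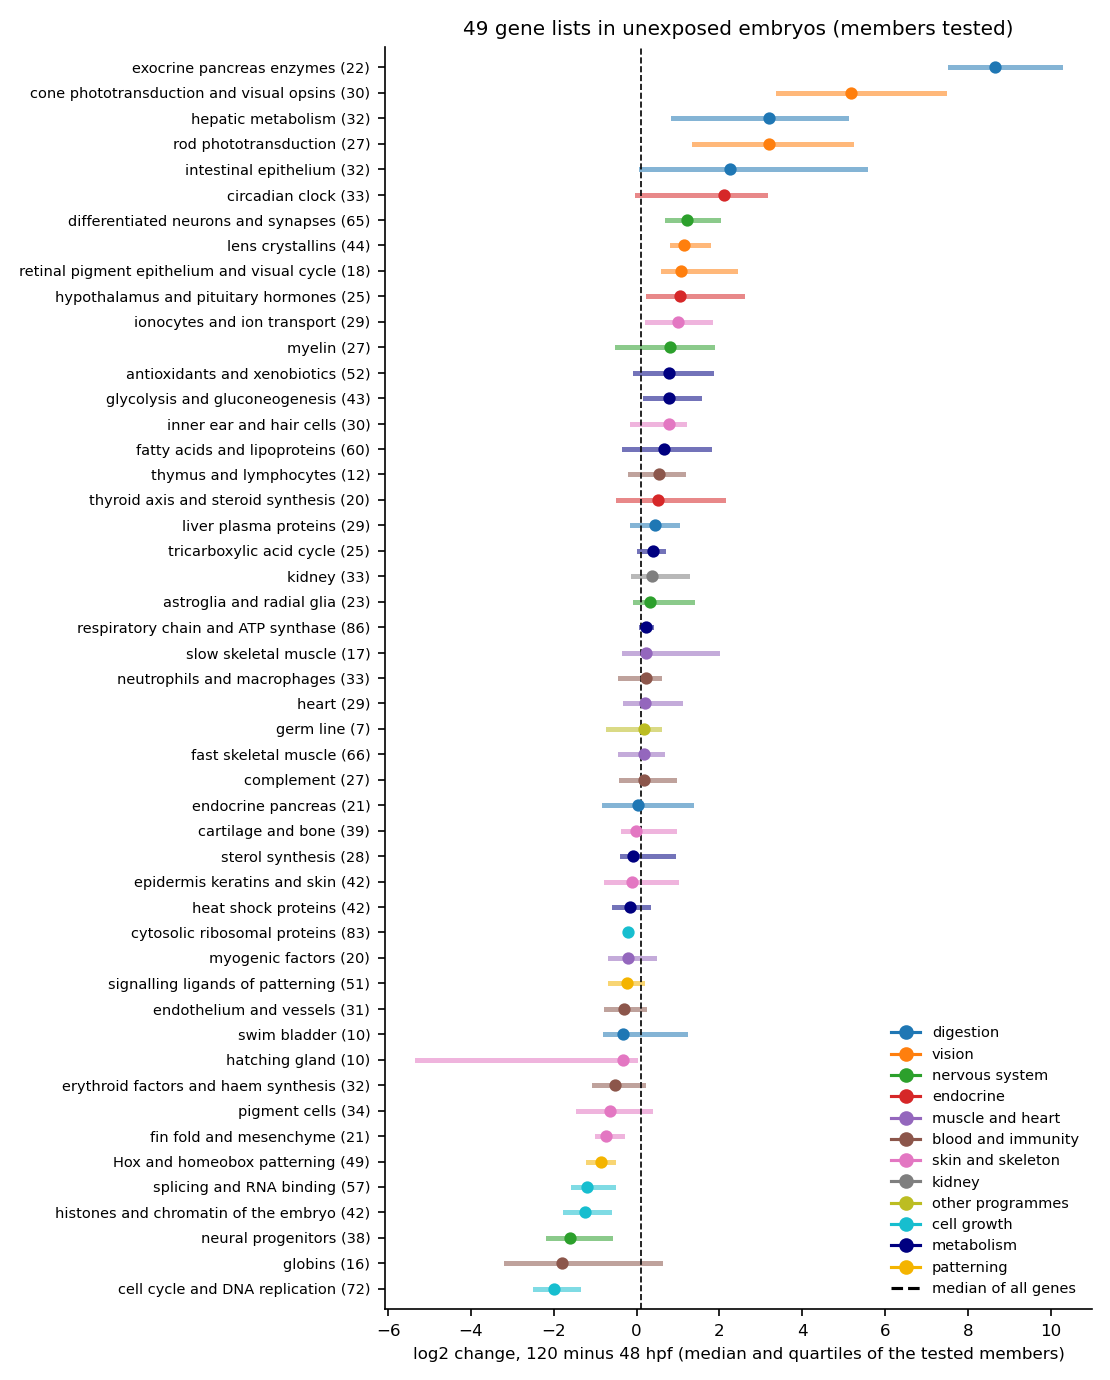
Log2 change from 48 to 120 hpf of the 49 gene lists in unexposed embryos, on the deposited FPKM scale. Each dot is the median over a list's tested members, each bar runs from the lower to the upper quartile of the members, colours mark the group of organs, and the dashed line is the median of all 21622 genes at 0.11; the exocrine pancreas lies far right at 8.66 and the cell cycle far left at -1.99.

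Energy metabolism shifted upwards in part. In the tricarboxylic acid cycle 15 of 25 genes rose and pcxb fell (median 0.40), with sdha (60.5 ± 3.06 to 141 ± 7.8 FPKM) and mdh2 (209.5 ± 7.11 to 397 ± 9.7 FPKM) among them. The enzymes idh2 (0.45) and ogdha (0.31) rose, and citrate synthase cs did not pass (90.9 ± 4.49 and 95.4 ± 2.86 FPKM). Respiratory chain genes rose in 43 of 86 cases, a count of 22 under median-ratio scaling. The subunit cox4i1 was called higher (0.25), a call lost under both other scalings (adjusted p up to 0.397 in limma). It was also lost without 48 hpf replicate 1 or 120 hpf replicate 4 (0.0534 and 0.0509). The subunit atp5g1 was called lower (-0.39, lost in replicates 1 to 3 only), and ndufa4l2a rose (0.72). Tissue-type subunits rose most: cox6a2 (2.08 ± 1.2 to 31.5 ± 4.77 FPKM), cox7a1 (2.11 ± 0.63 to 17.7 ± 0.808 FPKM) and cox4i2 (6.33 ± 1.94 to 34.8 ± 1.43 FPKM). Glycolysis and gluconeogenesis genes were higher in 31 and lower in 4 of 43 cases (median 0.78). Pyruvate kinase pkma rose from 31.5 ± 3.67 to 140.5 ± 15.3 FPKM and the glucose transporter slc2a1a from 3.87 ± 1.16 to 21.9 ± 2.88 FPKM. Hexokinase hk1 and the lactate dehydrogenase ldha did not pass. Phosphofructokinase pfkmb fell from 36.5 ± 7.73 to 8.15 ± 1.32 FPKM, and lactate dehydrogenase ldhba did not pass (257 ± 14.8 and 258 ± 22.2 FPKM).

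Sterol synthesis genes were split, 10 higher and 7 lower of 28, 8 and 12 after quantile normalization, and the median was -0.08, against the direction of the larger count. The rate-limiting reductase hmgcra rose from 1.55 ± 0.598 to 7.17 ± 1.75 FPKM, the receptor ldlra from 0.552 ± 0.2 to 9.02 ± 2.25 FPKM and msmo1 from 3.04 ± 0.146 to 26.1 ± 9 FPKM, while fdps (30.8 ± 2.81 to 14.7 ± 1.82 FPKM) and idi1 (-0.88) fell. Squalene synthase fdft1 rose (1.12), and sqlea did not pass. Antioxidant and detoxification genes were higher in 36 of 52 cases (median 0.78). Catalase cat rose from 19.6 ± 1.62 to 75.6 ± 3.59 FPKM, the transporter abcb4 from 1.08 ± 0.236 to 34.4 ± 4.21 FPKM, the glutathione transferase gstp2 from 0.21 ± 0.162 to 43.3 ± 13.1 FPKM and cyp1a from 1.35 ± 0.36 to 15.06 ± 2.46 FPKM. The metal-binding mt2 rose (1.61), and the abundant gpx4b and gstp1 did not pass. The peroxidase gpx7 fell from 28.6 ± 1.48 to 3.15 ± 0.732 FPKM. Among 42 heat shock genes 9 rose and 15 fell (median -0.15). The inducible hsp70.3 read 34.2, 27.7, 29.6 and 10.6 FPKM at 48 hpf and 6.33, 7.62, 26.3 and 10.1 FPKM at 120 hpf, so its groups overlapped and it did not pass (adjusted p = 0.0531). The constitutive hspa8 (2043 ± 256 and 2319 ± 124 FPKM) and hspb1 did not pass. The chaperone hsp90aa1.1 was called lower (-0.77), a call lost after quantile normalization and without replicate 1 or 3 of either stage (adjusted p up to 0.0851 in limma). The muscle chaperones hspb6 (3.08 ± 1.05 to 17.6 ± 1.94 FPKM) and hspb11 (6.16 ± 0.626 to 26.3 ± 3.27 FPKM) rose.

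Patterning genes receded. Of 49 tested Hox and homeobox genes, which fix position along the body axis, 44 were lower and 0 higher (median -0.86). The gene hoxa9a read 9.44, 9.22, 9 and 9.18 FPKM at 48 hpf and 1.55, 2.7, 1.99 and 2.33 FPKM at 120 hpf (log2 change -1.90 ± 0.13, adjusted p = 6.75e-07). Declines were also measured for hoxb9a (26.2 ± 0.458 to 7.53 ± 0.709 FPKM), hoxb6b (-1.79), hoxb1a (-1.196), hoxb5a (-0.24, lost in replicates 1 to 3 only), hoxc4a (-1.46) and hoxd13a (-0.83). The 5 that did not pass were hoxa11a, hoxa13a, hoxa13b, hoxb7a and hoxc6a, all with log2 changes between -0.40 and 0. Signalling ligands fell in 24 and rose in 9 of 51 cases (median -0.24). Sonic hedgehog shha (20.1 ± 2.12 to 11.4 ± 0.682 FPKM), bmp4 (10.9 ± 1.06 to 5.51 ± 0.209 FPKM), dlc and fgf8a (-0.62) fell, and the chemokine cxcl12a rose (29.4 ± 2.27 to 40.5 ± 1.7 FPKM), and wnt8a was under the filter.

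Many zebrafish genes persist as pairs of copies from a genome duplication in the teleost ancestor, and such copies are usually named a and b. Pairs were matched here by symbol alone, which also takes in distinct genes whose names end in these letters, such as the kinases aurka and aurkb, and how many such pairs there are was not determined. Of 2328 pairs of symbols with both genes tested, 603 (25.9%) were both higher, 360 (15.5%) both lower and 319 (13.7%) called in opposite directions. Calls in the same direction thus outnumbered opposite ones. Among all genes tested 38.3% were higher and 29.0% lower, and the shares that unrelated pairs would give were not computed. In another 845 pairs 1 gene was called and in 201 neither. Opposite calls of at least 2-fold in both genes were found in 35 pairs (1.5%). Of those with the largest smaller change, where each gene reached 10 FPKM, 7 are named here, chosen after their values were seen. They included mybpc2, a thick-filament protein of fast muscle, with mybpc2a at 0.237 ± 0.111 rising to 10.25 ± 0.736 FPKM and mybpc2b at 155 ± 13.3 falling to 30.1 ± 4.95 FPKM. Collagen IX had col9a1a at 23.6 ± 7.74 rising to 70.25 ± 13.5 FPKM and col9a1b at 236 ± 20.2 falling to 82.9 ± 14.7 FPKM. For CTP synthase, ctps1b rose from 2.76 ± 0.815 to 35.9 ± 2.78 FPKM and ctps1a fell from 24.5 ± 3.68 to 10.18 ± 0.79 FPKM, and for the cohesin subunit, rad21a fell from 164 ± 15.6 to 68.9 ± 2.36 FPKM and rad21b rose from 5.49 ± 0.946 to 17.1 ± 2.19 FPKM. The other 3 pairs were plppr3, rbm25 and ecrg4.

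**Figure D4:**
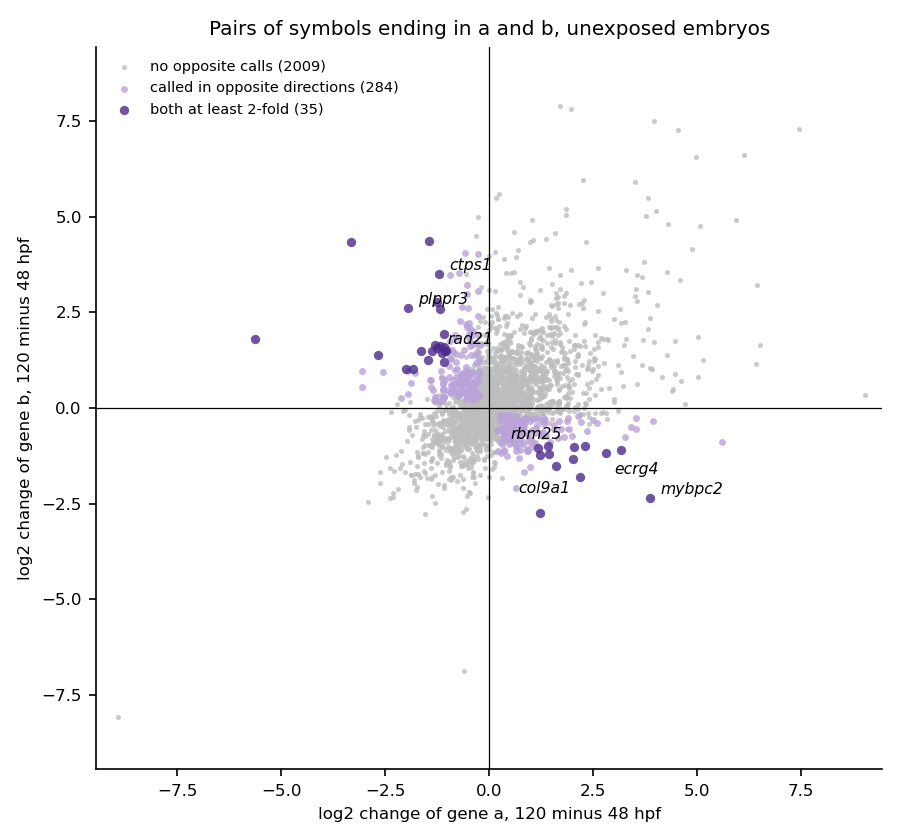
Log2 change from 48 to 120 hpf of the gene ending in a (x axis) and the gene ending in b (y axis) in 2328 pairs of symbols in unexposed embryos. Grey points are pairs without opposite calls, purple points the 319 pairs called in opposite directions, which lie in the upper left and lower right of the plot, and the dark purple points among them the 35 with at least 2-fold changes in both genes.

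The 4 libraries of a stage were not equally far along the axis that separates the stages. On the first principal component the 48 hpf libraries stood at -98.8 (replicate 2), -94.6 (replicate 3), -90.0 (replicate 1) and -87.6 (replicate 4), against 89.2 to 95.8 at 120 hpf. The genes called by at least 4-fold were picked by their change in these same libraries. Their shares are therefore no independent support for an order of the libraries. Of the 313 genes called lower by at least 4-fold, replicate 2 held the highest value of 48 hpf in 48.2%. Among the 1393 genes called higher by at least 4-fold it did so in 14.6%, and replicate 4 in 38.5%. At 120 hpf, replicate 3 was the highest for 33.8% and replicate 2 for 13.0% of these 1393 genes. Among the 313 genes it was also replicate 3, at 42.2%, followed by replicate 2 at 32.9%, so replicate 3 was the most often highest of 120 hpf in either direction. Over all genes tested, replicate 3 was the most often highest of 48 hpf, in 31.6%, with replicate 4 in 27.7% and replicate 2 in 21.8%. At 120 hpf replicate 3 was the highest in 29.7%, replicate 1 in 29.2% and replicate 2 in 20.8%. The replicates carry no label that sets them apart.

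**Figure D5:**
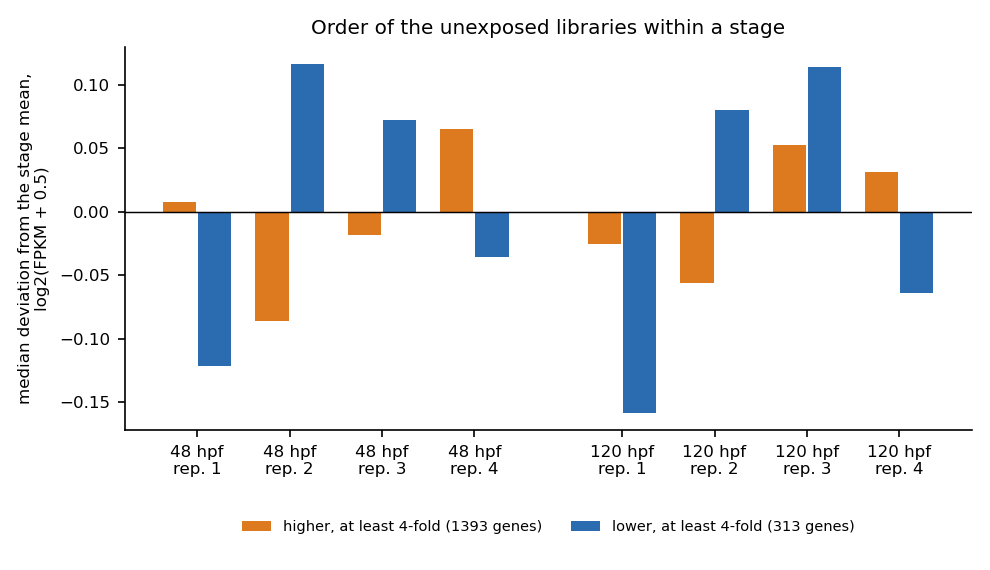
Median deviation of each unexposed library from the mean of its stage, in log2(FPKM + 0.5), over the 1393 genes called at least 4-fold higher (orange bars) and the 313 called at least 4-fold lower (blue bars) at 120 hpf. At 48 hpf replicate 2 is lowest for the former at -0.09 and highest for the latter at 0.12, and at 120 hpf replicate 3 is highest for both, at 0.05 and 0.11.

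The stage effect was also compared between unexposed and RFR-exposed embryos with an interaction term over all 16 libraries. An unadjusted p under 0.05 in limma was found for 1536 of 21622 genes, where chance alone gives a share of about 0.05. At an adjusted p under 0.05, 0 genes (0.0%) differed in their stage effect, and the lowest adjusted p was 0.107. The count was 1 without control 48 hpf replicate 4 (a noncoding row without a symbol) and 1 without RFR 48 hpf replicate 1 (the lens gene crygm2d15), and 0 without any other library. Of the 14549 genes called in unexposed embryos, 14362 (98.7%) had the same sign of change in RFR embryos. The same share over all genes tested was not computed. The 5 smallest unadjusted p among genes with a symbol belonged to tshz3b, ppp1r14ba, cspg5a, pdgfrl and gadd45bb. For ppp1r14ba the log2 stage change was -0.82 in controls and -1.58 after RFR (unadjusted p = 0.00012, adjusted p = 0.518 in limma), and for gadd45bb, a stress-induced gene, 0.48 and 1.41 (unadjusted p = 0.000238, adjusted p = 0.52). For the trypsin gene try the stage change was 10.76 and 10.06, and for rho 8.49 and 7.80. Neither difference passed the test, and neither gene was picked by its interaction p. A p above the threshold does not show that the stage effects were equal.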

How the data were processed

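RNA of whole zebrafish embryos was sequenced in 16 libraries, 4 per group, and the 8 unexposed ones were analysed here. The deposited table gives FPKM per gene row, per the file headers. HISAT2, Bowtie2 and DESeq2 and the build GRCz11 come from the submitters' processing notes. Which of these programs, if any, computed the FPKM values is not stated. The authors also deposited the count of clean reads and the percent of reads mapped per library, per the file headers. FPKM scales each library to its mapped reads and each gene to its length, so a few abundant transcripts can shift all others. Values of 0 come without a depth per gene, so no detection limit is given for them. All 16 value columns belong to a labelled sample, and 0 do not.

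Rows at 0.5 FPKM or more in at least 4 of the 8 libraries were kept. Values were taken as log2(FPKM + 0.5), which understates changes of low genes, and tested with limma 3.58.1 in R 4.3.3 (mean-variance trend, 6 residual degrees of freedom), with Benjamini-Hochberg adjustment over all 21622 genes. FPKM is not a count, so no count model was run. On simulated data the test recovered 86% of 100 genes changed 2-fold and 43% of 100 changed 1.5-fold, with 7 false among 136 calls. No other gene was changed in the simulation, whereas 67.3% of genes were called in the data. These rates therefore do not give the power of the stage comparison. The interaction of stage and exposure used all 16 libraries. The number of reads per library is given with the results, and precision was not tested against it.

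The 49 gene lists were written with earlier results of these data known, as was the choice of the comparison, so they get no test and are given as counts and medians beside all genes. Of 1875 list entries, 1768 matched by symbol, 73 by current symbol, 5 by synonym and 29 not at all. Named were the key genes of each list, up to 3 more called members with the largest change at 10 FPKM or more, up to 2 called members against the majority, the 15 largest rises and falls at 50 FPKM or more, switched genes, the 8 most abundant genes of each stage and the 5 smallest p of the interaction. Other members named to account for a minority of a list, the pairs of symbols ending in a and b, the cathepsin L rows and the order of libraries were chosen after their values were seen. Some genes that these rules pick are not reported here. Promoter motifs were not analysed here. Alternatives varied the pseudocount, the filter, the scaling, the variance model, the libraries in the fit, library weights and a replicate block, and each library was left out in turn.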

Additional observations from a re-analysis of the deposited data

Results flagged for a closer look

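Each group of 4 libraries was checked for a library whose gap to its nearest neighbour, as a share of the group's whole range, exceeded Dixon's 95% critical value for 4 samples, for the genes named above on log2(FPKM + 0.5) and for the library summaries. Of 758 groups, 47 (6.2%) held such a library, where chance gives about 5% of groups. No single library held most of them: the counts were 9, 5, 8 and 3 in replicates 1 to 4 of 120 hpf and 5, 9, 2 and 6 in those of 48 hpf.

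At 120 hpf, replicate 1 had the high rRNA share of 3.2%. It was far below the others for aanat2 (0.86 FPKM), dnmt3ab (6.71 FPKM), hoxb6b (1.55 FPKM), kdrl (9.61 FPKM) and matn1 (83.6 FPKM), and far above for myh6 (2.02 FPKM), nfil3-5 (9.85 FPKM) and spp1 (23.6 FPKM). Replicate 2 was far above for cdkn1a (14.7 FPKM), cps1 (1.11 FPKM), he1b (0.89 FPKM) and pfkmb (10.1 FPKM), and far below for cyp3a65 (356 FPKM). Replicate 3 was far below for krt4 (2693 FPKM), fasn (9.34 FPKM), slc1a3b (12.4 FPKM) and LOC100149863 (7.77 FPKM), and far above for mbpb (84.8 FPKM), olig2 (7.82 FPKM), pkma (163 FPKM) and rho (1509.6 FPKM). Replicate 4 had the most clean reads, 49232542, with stab2 (1.32 FPKM) far below and zp2.1 (0.4 FPKM) far above.

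At 48 hpf, replicate 1 was far above the others for myh6 (1.98 FPKM), pcxb (18.2 FPKM), pvalb9 (214 FPKM), tfa (335 FPKM) and tnw (248 FPKM). Replicate 2 was far below for aanat2 (0.71 FPKM), agxtb (listed at 0 FPKM), cygb2 (1.06 FPKM), ptgdsb.1 (26.1 FPKM) and rgra (3 FPKM), and far above for mybpc2b (175 FPKM), rx1 (12.5 FPKM), si:dkey-269i1.3 (144 FPKM) and zgc:92041 (1.11 FPKM). Replicate 3 was far above for hoxb5a (15.8 FPKM) and otofa (1.51 FPKM). Replicate 4 was far above for gc (1.86 FPKM), opn1lw2 (3.78 FPKM), slc4a4a (8.66 FPKM) and tdrd1 (0.2 FPKM), and far below for alas2 (43 FPKM) and ela3l (0.07 FPKM). No stage call among these genes was lost when the library named was left out. Without it, aanat2 passed the test (adjusted p = 0.0205 in limma without 48 hpf replicate 2), and so did kdrl (0.0419 without 120 hpf replicate 1).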

How the results depend on the processing

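The number of genes that differed between the stages (14549) lay between 13332 and 15612 in the 20 other settings and between 13748 and 14181 with a library left out. The filter on low values changed the number tested most, to 31754 with no filter, of which 49.2% were called. Genes at least 2-fold lower numbered 1837 and, after quantile normalization, 2892. Of 375 named genes that were tested, 320 were called. Of these, 291 kept their call in every setting in which they were tested and 29 lost it in at least 1. Among the named genes that were not called, 28 were called in at least 1 other setting, so a gene that did not pass is not thereby shown to be unchanged. With quantile normalization the log2 change turned to -0.37 for myh6, -0.32 for myog, -0.54 for otog, 0.0175 for rplp0 and -0.02 for xgb, and the list medians to -0.0531 for neutrophils and macrophages and -0.42 for the germ line. Under median-ratio scaling the median of the endocrine pancreas was -0.091. The majority direction differed in 7 lists under quantile normalization and in 5 under median-ratio scaling. No list median moved by more than 0.42 relative to that of all genes. The cause of these shifts was not tested. For the stage-by-exposure interaction, 1 gene passed with a pseudocount of 0.1, 1 after quantile normalization and 1 in replicates 1 to 3 only, each time the same noncoding row, and 0 to 1 with a library left out. With the replicate number as a block, 14114 genes were called. Same-numbered libraries of the stages deviated with correlations of -0.17 to 0.19. Whether a shared number marks a shared origin cannot be told from these values, since differently numbered libraries were not compared. Depth per gene is unknown in FPKM, which limits what is said of genes near 0.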

Other observations

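Some rows hold noncoding transcripts only, by their RefSeq accession type. Of 1338 such rows tested, 27.4% were higher at 120 hpf and 15.8% lower, with a median log2 change of 0.15, against 39.0% and 29.8% of the 20284 other rows, with a median of 0.10. The difference in shares was not tested.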
